A study of Sus scrofa with 20 samples.

Results

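Genes were sought in which both foot sites, the sole and the upper side of the foot, differed in 1 direction from both flank and snout skin of the pig. In the 12 libraries of the first of 2 sets, taken by their labels, 6 of 19280 genes in the table met this rule, all higher in the foot. They are SP8, HOXC11, PAX9, RHCG and 2 genes known only by the identifiers ENSSSCG00000015979 and ENSSSCG00000029666. They were chosen by their first-set values: the rule asked for an adjusted p under 0.05 in each of 4 comparisons (sole against flank, sole against snout, upper foot against flank, upper foot against snout), by edgeR's quasi-likelihood test with Benjamini-Hochberg adjustment. It was met by 0.0392% of the 15302 genes tested, and by 0 genes lower in the foot. Without adjustment of p, 44 genes higher and 53 lower passed all 4 comparisons.

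Skin was punched from 4 sites, labelled volar (the sole), dorsal (the upper foot), flank and snout, in each of 5 wild-type female Yorkshire pigs, untreated as far as the labels say. RNA-seq of poly(A) RNA gave 1 library per site and pig, 20 in all, and each pig is named here by its age. Library numbers form 2 sets: the first set comprises the pigs aged 4, 7 and 8 months (12 libraries), the second those aged 5 and 6 months (8 libraries). A punch holds epidermis, dermis and whatever lies in them, so fewer cells of a type and less RNA per cell cannot be told apart. The labels do not say whether a fore or a hind foot was sampled.

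The labels of the second set went against its expression, and every reported test keeps the labelled sites; a version of the rule that places these libraries by expression is given further on as a description. RHCG stood at 330 to 639 CPM in the first-set volar libraries and at 714 and 793 CPM in the second-set libraries labelled flank, while the second-set libraries labelled volar held 5.15 and 10.1 CPM. The skeletal muscle list, with 23 of 30 genes matched, summed to 6782 and 11020 CPM in the libraries labelled volar of the second set and to 14240 CPM in the snout library of the 7-month pig, against 13.8 to 170.6 CPM in every other library. The second set is therefore given with its labels as they stand, as "the libraries labelled flank" and so on. Libraries held 34077861 to 66906489 counts. CPM here is the count of a gene scaled to library size with TMM factors over all 20 libraries, and it carries no gene length, so levels are compared within a gene.

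Position along the body and the limb is written in skin by transcription factors that remain active after development. The HOX genes lie in clusters whose order follows the body axis, and their paralogs 9 to 13 pattern the trunk end and the limb from shoulder or hip to digits. SP8 acts in the ectoderm of the limb tip during outgrowth, PAX9 in tooth and digit mesenchyme, and RHCG moves ammonia across epithelial membranes.

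SP8, a zinc finger transcription factor, was close to absent outside the foot. In the sole it stood at 8.28, 5.74 and 4.75 CPM in the pigs aged 4, 7 and 8 months, and in the upper foot at 2.15, 2.63 and 2.35 CPM. No count was found in any of the 3 flank libraries, nor in the snout of the 4- and 8-month pigs, and the snout of the 7-month pig held 0.0698 CPM. Every foot library was above every flank and snout library. With 3 counts over the flank group as the floor, SP8 was at least 364.3-fold higher in the sole and at least 138.3-fold higher in the upper foot than in flank. The sole and upper foot groups did not overlap, but their difference missed the threshold (log2 1.40 ± 0.58, SE, n = 3 pigs, adjusted p = 0.117 by edgeR).

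HOXC11, a homeobox factor of the hind trunk and limb, was higher in the sole than in the upper foot. Its sole values were 5.85, 3.11 and 4.09 CPM and its upper foot values 2.01, 2.05 and 1.68 CPM. Flank held 0.0926, 0.135 and 0.139 CPM, and no snout library held a count. All 3 flank libraries were thus above the snout, and all were far below the foot: the sole was 35.6-fold and the upper foot 15.7-fold above flank. The rule did not use the comparison within the foot, where the sole was higher by log2 1.18 ± 0.31 (adjusted p = 0.0247, edgeR), nor that of flank with snout, which passed as well (adjusted p = 0.00115). Both come from the same first-set libraries and site means that chose the genes. Requiring all 4 comparisons favours genes with small differences inside each pair of sites, by an amount that was not measured. Of the 6 members, 2 (HOXC11 and RHCG) were called between sole and upper foot, against 24.1% of all genes, and 2 (HOXC11 and ENSSSCG00000015979) between flank and snout, against 13.2%.

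PAX9, a paired box factor, was low outside the foot as well. The sole held 3.21, 1.72 and 2.13 CPM, the upper foot 1.42, 1.30 and 1.29 CPM, the flank 0.0695, 0.0750 and 0.154 CPM and the snout 0.0159, 0.0977 and 0.0171 CPM. The 6 foot libraries lay above the other 6, and the mean of the sole was 23.7-fold and that of the upper foot 13.4-fold above flank. Neither sole against upper foot (adjusted p = 0.261) nor flank against snout (adjusted p = 0.286) passed edgeR's test. With the pig as a block PAX9 left the rule, its largest of the 4 adjusted p moving from 0.0409 to 0.0604.

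RHCG, an ammonia transporter, was mainly a gene of the sole. It stood at 563, 639 and 330 CPM there, at 20.3, 14.8 and 18.0 CPM in the upper foot, at 5.81, 5.41 and 3.29 CPM in flank and at 7.35, 7.16 and 6.56 CPM in snout. The upper foot libraries did lie above all flank and snout libraries, by 3.66-fold and 2.52-fold on the means, but the sole was above the upper foot by log2 4.85 ± 0.30 (adjusted p = 1.736e-05, edgeR, higher in 3 of 3 pigs). RHCG left the rule under limma-voom, with a largest adjusted p of 0.0515. It is the single member with a symbol and a mean of at least 5 CPM over the foot libraries.

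The 2 members without a symbol were high at both foot sites. ENSSSCG00000015979 held 9.11, 2.96 and 6.15 CPM in sole, 7.11, 6.45 and 5.08 CPM in upper foot, 0.116, 0.195 and 0.123 CPM in flank and 0.0318, 0.0140 and 0.0343 CPM in snout. ENSSSCG00000029666 held 12.96, 4.94 and 7.41 CPM in sole, 11.8, 13.1 and 9.18 CPM in upper foot, 0.347, 0.570 and 1.06 CPM in flank and 0.413, 0.181 and 0.977 CPM in snout. The sole was the more variable foot site for both, and its values overlapped those of the upper foot (log2 -0.03 ± 0.37 and -0.43 ± 0.54, adjusted p = 0.965 and 0.615, edgeR). Flank was above snout in ENSSSCG00000015979 (adjusted p = 0.0224, edgeR) and not called in ENSSSCG00000029666 (adjusted p = 0.735).

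**Figure D1:**
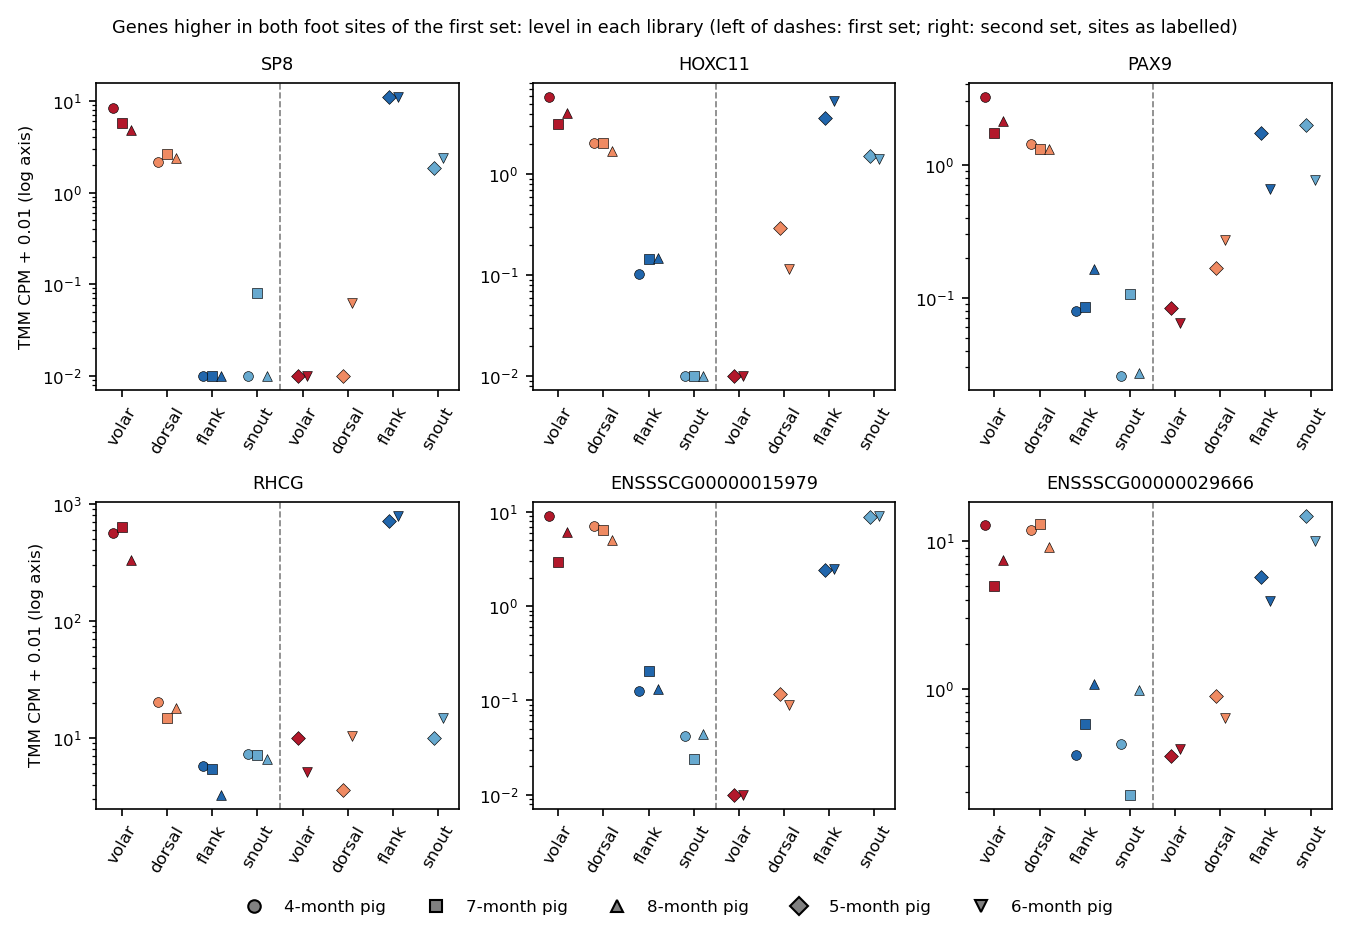
Level of the 6 genes in every library, as TMM CPM plus 0.01 on a log axis, by labelled site, with the first set left of the dashed line and the second set right of it, and the shape of a point giving the pig. In the first set the 6 volar and dorsal points of each gene lie above the 6 flank and snout points, and in the second set the high points of each gene are among those labelled flank and snout.

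The comparison of upper foot with flank set the number of members. It called 20 genes (12 higher, 8 lower; 0.131% of those tested), against 32.9% for sole against flank, 11.6% for sole against snout and 7.92% for upper foot against snout. With that comparison left out, 65 genes passed the other 3, of which 27 were higher and 38 lower in the foot. By the largest of the 4 adjusted p, the members nearest the threshold were PAX9 (0.0409), ENSSSCG00000029666 (0.0394) and, next of those with a symbol, RHCG (0.0266). Nearest outside was ENSSSCG00000009022 (0.0603), and of genes with a symbol HOXC12, EPHA8 and CDH18, tied at 0.0712, then CELSR2 at 0.0731. Membership rested on few libraries: without any 1 of the 3 dorsal libraries, or without the flank library of the 7-month pig, 1 gene met the rule, ENSSSCG00000015979, and without the pig aged 4, 8 or 7 months 0, 0 and 1 did.

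The 8 libraries of the second set played no part in choosing the 6 genes. There the mean of the libraries labelled volar and dorsal was compared with that of the libraries labelled flank and snout, over 15280 genes. All 6 members passed, and all 6 were lower in the libraries labelled volar and dorsal, where 11.6% of genes tested were called lower (26.5% in either direction, 14.9% higher). By edgeR the log2 difference was -3.72 ± 0.39 for RHCG (adjusted p = 0.00165) and -3.41 ± 0.54 for PAX9 (adjusted p = 0.00587). For ENSSSCG00000029666 it was -3.88 ± 0.26 (adjusted p = 0.000499, edgeR). Each was over 4 against 4 libraries from only 2 pigs, with no term for the pig. SP8, HOXC11 and ENSSSCG00000015979, with no count in the libraries labelled volar, passed with adjusted p of 0.000844, 0.00137 and 0.000306. The interaction of this contrast with the set was called in 33.5% of all genes; for the 6 members it contains the first-set values that chose them and is no test.

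In the pigs aged 5 and 6 months, SP8 stood at 11.0 and 11.0 CPM in the libraries labelled flank, at 1.86 and 2.37 CPM in those labelled snout, and at 0 or 0.0522 CPM in the other 4. HOXC11 held 3.63 and 5.36 CPM in those labelled flank, 1.51 and 1.41 CPM in those labelled snout, 0.282 and 0.104 CPM in those labelled dorsal and no count in those labelled volar. PAX9 held 1.71 and 0.642 CPM in those labelled flank and 1.98 and 0.759 CPM in those labelled snout, against 0.0542 to 0.261 CPM in the rest. In 5 of the 6 genes all libraries labelled volar and dorsal lay below all those labelled flank and snout, which was so in 3% of all genes tested.

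RHCG was the exception. Its libraries labelled snout held 9.97 and 14.8 CPM, overlapping those labelled volar (10.1 and 5.15 CPM) and dorsal (3.59 and 10.3 CPM), and neither labelled comparison with snout passed (adjusted p = 0.460 for volar and 0.786 for dorsal, edgeR). In these 2 pigs RHCG was thus high in 1 labelled site alone, at 714 and 793 CPM. ENSSSCG00000015979 and ENSSSCG00000029666 were higher in the libraries labelled snout (8.83 and 9.15 CPM, 14.9 and 9.98 CPM) than in those labelled flank (2.41 and 2.48 CPM, 5.70 and 3.94 CPM). Only these 2 genes (0.0131% of those tested) passed all 4 labelled comparisons in the second set, both lower in the libraries labelled volar and dorsal. They were 2 of the 6 genes (0.0393%) called between the libraries labelled dorsal and snout.

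**Figure D2:**
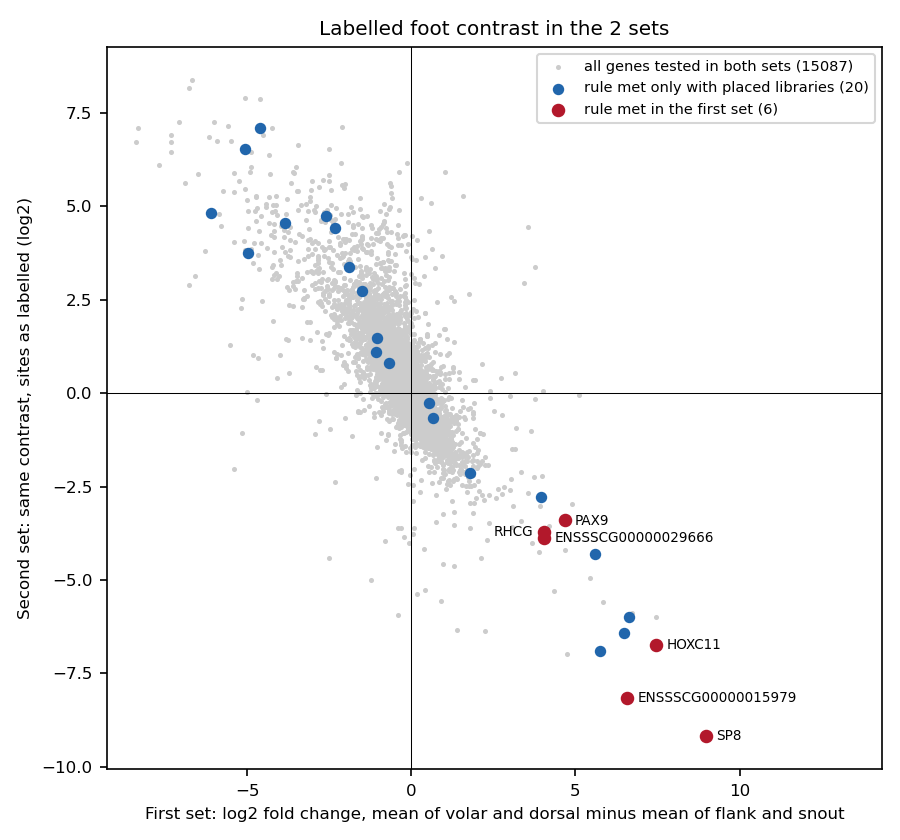
Log2 fold change of the mean of volar and dorsal minus the mean of flank and snout, first set on the x axis and second set as labelled on the y axis, for the 15087 genes tested in both; blue marks 20 of the 21 genes added by placement, HOXD12 being untested in the second set. The 6 members, in red, lie at the lower right, higher in the first set and lower in the second as labelled; positions of genes with groups at 0 depend on the fitted prior.

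Placing the second-set libraries by expression match instead of by label, 10 foot libraries against 10 others, gave 27 genes (0.177% of 15275 tested), 15 higher and 12 lower in the foot. Because that placement used expression, these are a count and a description, with no p. The 6 first-set members are all among them, 100% of the 6 and 22.2% of the 27. With all 20 libraries taken by label, 0 genes met the rule by edgeR, and 0 without adjustment of p. The 21 genes added by placement all had the same direction in all 4 first-set comparisons, and all missed upper foot against flank there. Of the 21, 12 also missed another of these comparisons. First-set libraries were part of the placed fit, so the shared direction is a description. The 21 genes are named because the list is complete and not by the rule for named genes.

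The 9 higher genes added by placement were the homeobox genes HOXA11, HOXC12, HOXD11, HOXD12 and EVX2, which lies at the end of the HOXD cluster, TBX20, a T-box factor, EPHA8, an ephrin receptor, ADK, adenosine kinase, and ITPRIPL1. HOXC12 and HOXC11 are neighbours, as are HOXD12 and HOXD11, and EVX2 is parted from HOXD12 only by HOXD13, in the RefSeq annotation of Sscrofa11.1.

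HOXA11 stood at 5.26, 1.34 and 2.37 CPM in sole and 4.38, 4.46 and 3.24 CPM in upper foot of the first set, at 0.0926, 0.0900 and 0.679 CPM in flank and at 0.0140 to 0.0171 CPM in snout. Foot and other libraries did not overlap, and the flank of the 8-month pig was the nearest. Its upper foot was 14.0-fold above flank, with a first-set adjusted p of 0.1098 by edgeR. The largest of the 4 adjusted p of HOXA11 stayed above 0.05 in 20 alternative settings. It came under in 3, among them 0.0230 without that flank library. HOXC12 held 0.797 to 1.44 CPM in sole and 1.19 to 2.33 CPM in upper foot, against 0.0308 to 0.208 CPM in flank and no count in snout. EPHA8 resembled RHCG, with 6.37 to 8.13 CPM in sole, 0.447 to 0.465 CPM in upper foot and 0.0463 to 0.154 CPM in flank and snout together.

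All 12 lower genes came with placement, and their first-set values follow. CDH18, a cadherin of neural tissue, stood at 1.36 to 3.34 CPM in the 6 foot libraries and at 6.91 to 13.1 CPM in the 6 others. CNTN3, a contactin of neuronal surfaces, stood at 10.6 to 17.7 CPM against 18.9 to 27.4 CPM. IGSF1, an immunoglobulin superfamily membrane protein, stood at 0.0970 to 0.171 CPM against 0.533 to 4.09 CPM. None of these 3 overlapped. POU3F3 had no count in the 3 sole libraries, 0.0202 to 0.0789 CPM in upper foot, 0.255 to 0.447 CPM in flank and 1.30 to 2.31 CPM in snout, so the 4 sites formed 4 separate ranges. MFAP5, a microfibril protein of elastic fibres, overlapped, with 26.0 to 95.7 CPM in the foot and 70.8 to 170 CPM elsewhere. SOX11, a transcription factor, had no count in the sole and 0.0526 to 0.101 CPM in the upper foot, below the 0.139 to 0.700 CPM of flank and snout. MLC1, a membrane protein of astrocytes, stood at 0 to 0.683 CPM in the foot against 0.857 to 5.91 CPM. OGDHL, an enzyme of the oxoglutarate dehydrogenase family, and ENSSSCG00000009022 did not overlap either, at 0.0515 to 0.253 CPM against 0.285 to 1.93 CPM and at 0 to 0.0526 CPM against 0.461 to 1.34 CPM. NELL2, a secreted neural protein, SERPINB6, a protease inhibitor, and FAM43B each overlapped. In both sets, 17 of the 27 genes had ranges that did not overlap, with the labelled direction turned round in the second. Of all genes, 0.163% did so with the first-set foot above and 0.242% with it below. The 27 were chosen from these same 20 libraries, which favours such separation, so the 17 are a description and no test.

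**Figure D3:**
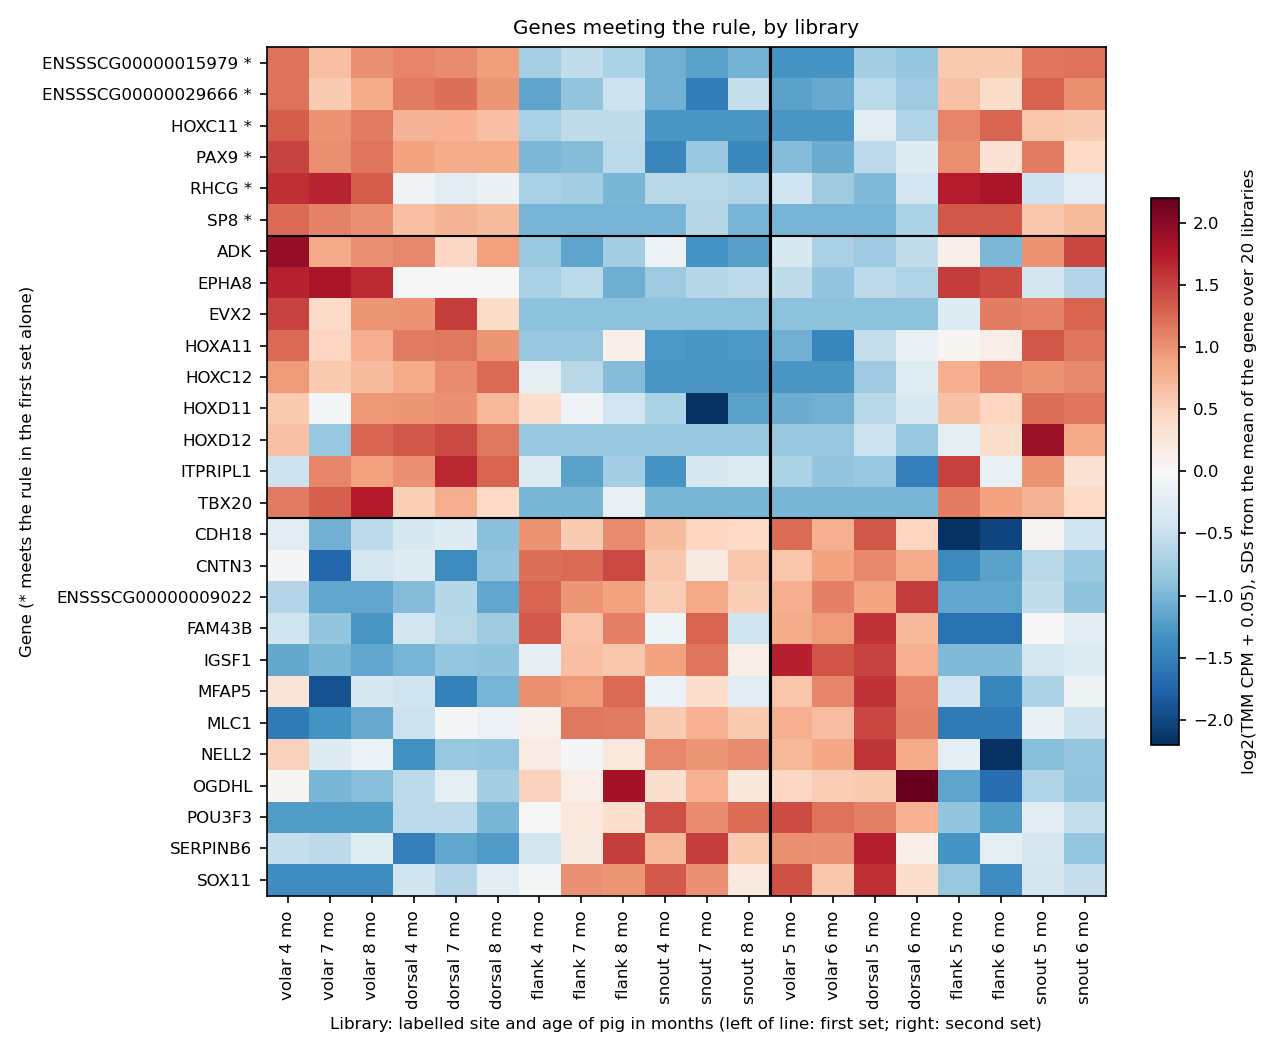
The 27 genes of the placed version (rows; those marked with an asterisk meet the rule in the first set) in the 20 libraries (columns, by labelled site and age), coloured by log2(TMM CPM + 0.05) in SDs from the mean of the gene. Red falls mostly on volar and dorsal of the first set and on the libraries labelled flank and snout of the second for the 15 higher genes, and the 12 lower genes show the reverse.

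Of HOXC10, HOXA11 and RHCG, taken as markers of foot skin, RHCG alone met the rule in the first set and HOXC10 met neither version. Flank held HOXC10 too, at 1.39, 0.720 and 2.27 CPM, below the sole at 5.01, 4.12 and 3.05 CPM but against an upper foot of 2.56, 2.18 and 3.07 CPM, where the flank of the 8-month pig exceeded the upper foot of the 7-month pig. No snout library held a count. Upper foot against flank gave log2 0.84 ± 0.42 and an adjusted p of 0.624 by edgeR.

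Of the HOX genes of paralog groups 9 to 13, 9 of 12 tested in the mean comparison of the first set rose in the foot and 0 fell (median log2 5.72, all genes -0.02; 3.4% of all genes were called higher), with 10 higher and 0 lower at an unadjusted p under 0.05 and 0 lower by DESeq2 and limma-voom. HOXC11 alone passed all 4 comparisons. HOXA9, HOXA10 and HOXC10 had no count in snout and missed upper foot against flank (adjusted p = 0.685, 0.481 and 0.624, edgeR). Where snout had no count the fitted size depends on the prior count, and so does the median of the list. HOXC9 held 4.45 to 4.83 CPM in flank, above the 1.52 to 2.41 CPM of the foot, and no count in snout, so its rise in the mean comparison came with the highest level in flank. In the first set HOXD9 and HOXD10 were present at every site (0.978 to 2.38 CPM and 0.894 to 5.43 CPM) and were not called (adjusted p = 0.845 and 0.152). HOXC13, at 7.06 to 14.1 CPM in upper foot, was lower in sole at 1.57 to 3.62 CPM (adjusted p = 0.0178, edgeR). In the second set, as labelled, 9 of 11 fell and 0 rose (median -4.31; 0 higher at an unadjusted p under 0.05 and by DESeq2 and limma-voom). Of all genes there, 11.6% were called lower. No identifier could be matched to the symbols HOXA13 and HOXD13, so they were not analysed by name. Whether genes without a symbol include them was not determined.

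**Figure D4:**
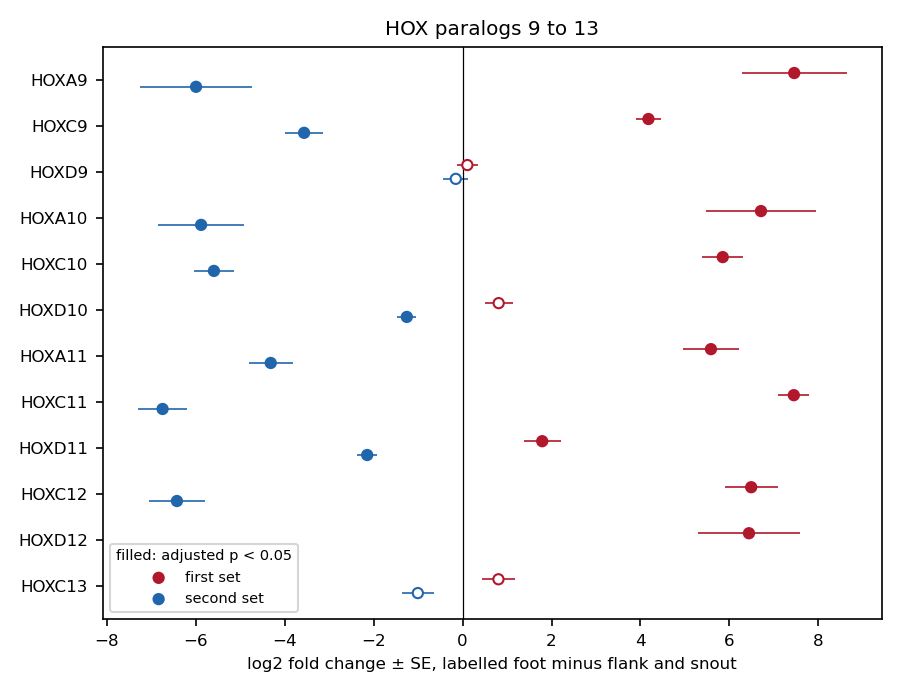
Log2 fold change ± SE of the mean of volar and dorsal minus the mean of flank and snout, first set in red and second set as labelled in blue, for HOX paralogs 9 to 13, filled where the adjusted p is under 0.05. In the first set 9 HOX genes are called higher, and the called genes have the opposite sign in the second set; HOXD12 was not tested there.

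HOXA9 and TBX4 differed between pigs within the foot. HOXA9 stood at 34.1 and 24.1 CPM in the sole of the 4- and 7-month pigs and at 1.88 CPM in that of the 8-month pig, and likewise at 29.6, 24.1 and 3.26 CPM in their upper foot. In flank it was even, at 4.89, 4.68 and 7.39 CPM, and snout held no count. In the second set the 5-month pig held 24.4 and 23.6 CPM in the libraries labelled flank and snout and the 6-month pig 1.28 and 5.18 CPM. The same 2 pigs, aged 8 and 6 months, were the lowest of their sets for TBX4, the T-box factor of the hind limb. It held 1.82 and 0.971 CPM in sole and upper foot at 8 months against 2.55 to 4.23 CPM at 4 and 7 months, and in the libraries labelled flank and snout 1.79 and 1.27 CPM at 6 months against 3.42 and 4.21 CPM at 5 months. TBX5, the T-box factor of the forelimb, stood highest in those pigs, at 5.34 and 6.80 CPM at 8 months against 1.72 to 5.24 CPM at 4 and 7 months, and at 2.52 and 8.24 CPM at 6 months against 0.699 and 5.08 CPM at 5 months in the libraries labelled flank and snout. Flank also held TBX5, at 2.99 to 5.38 CPM, and snout 0 to 0.0171 CPM. This split over 5 pigs was seen in the values and was not tested.

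**Figure D5:**
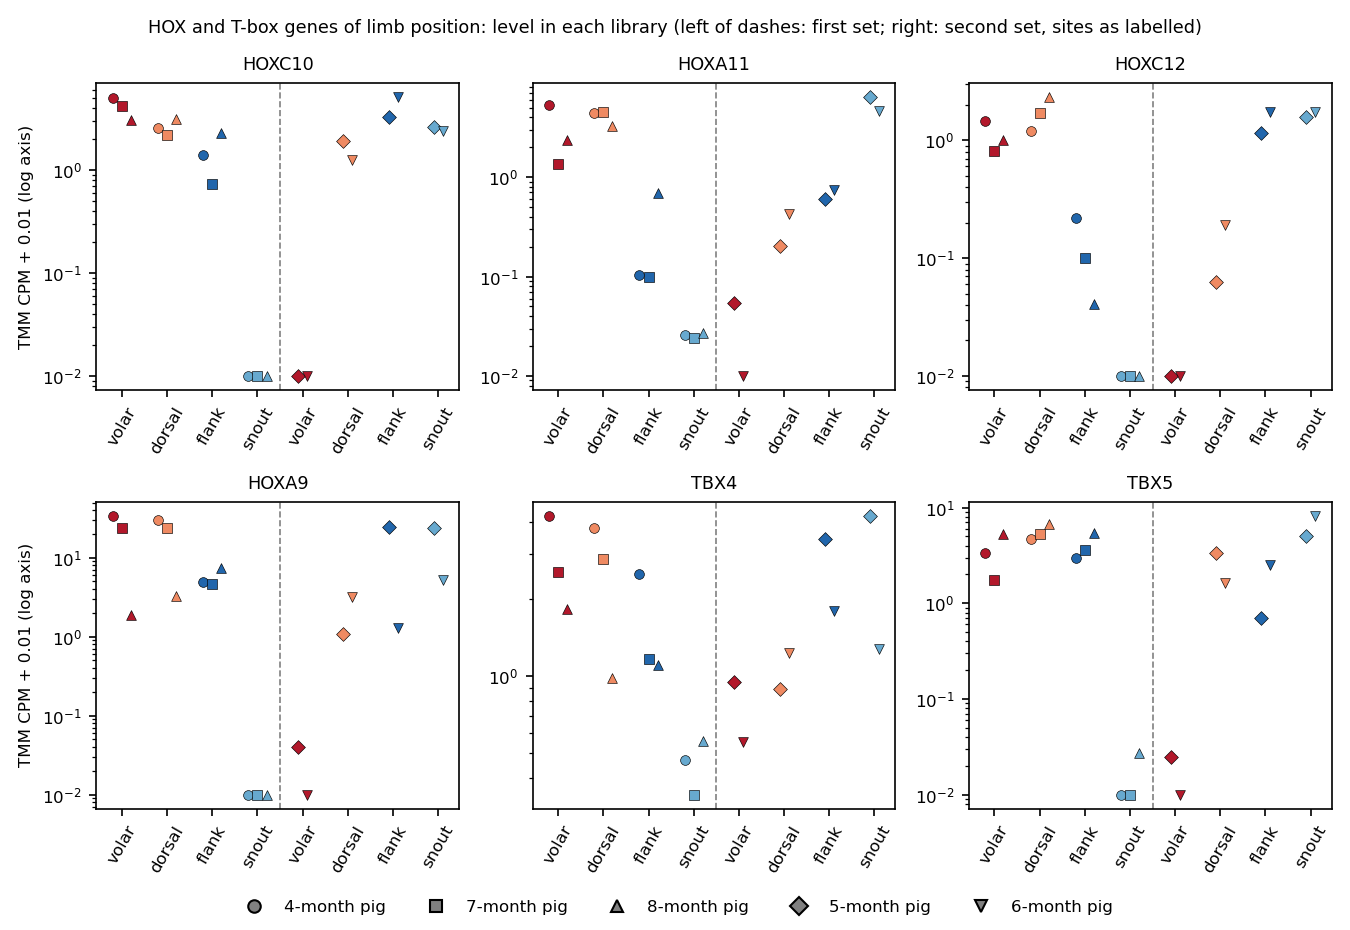
HOXC10, HOXA11, HOXC12, HOXA9, TBX4 and TBX5 in every library, as TMM CPM plus 0.01 on a log axis, by labelled site, first set left and second set right of the dashed line, with 1 point shape per pig. In HOXA9 the 8-month pig (triangle up) lies below the other 2 at both foot sites, and in TBX5 the snout of the first set lies near 0 in all 3 pigs.

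EN1, a factor of the ventral limb side, and LMX1B, one of the dorsal side, split the foot. EN1 stood at 9.14 to 14.8 CPM in sole and 0.728 to 1.05 CPM in upper foot, above it by log2 3.73 ± 0.57 (adjusted p = 0.00107, edgeR). LMX1B was higher in upper foot, at 3.84 to 4.38 CPM against 1.09 to 1.67 CPM (log2 -1.54 ± 0.28, adjusted p = 0.00294), and highest in snout at 18.1 to 21.8 CPM. Neither met the rule. Of the 35 limb patterning genes tested, 8 rose and 3 fell in the first-set mean comparison (7.1% of all genes were called, 3.4% higher and 3.7% lower). In the second set, as labelled, 7 rose and 11 fell, against 14.9% of all genes called higher and 11.6% lower.

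Several craniofacial and nerve genes were lower in the foot. In the first-set mean comparison, 3.7% of all genes were called lower and 3.4% higher. Of 31 craniofacial genes, 8 fell in the foot of the first set, among them PAX3, SIX4 and EYA1, and 3 rose (PAX9, DLX5 and DLX6). SIX4, a homeobox factor, lay at 0.194 to 1.98 CPM in the 6 foot libraries and at 2.24 to 10.1 CPM in the others. Of 16 nerve and Schwann cell genes 7 fell and 0 rose (median log2 -1.06; 13 lower and 0 higher at an unadjusted p under 0.05; 0 higher by DESeq2, which called 11 lower, and by limma-voom). Among them were SOX10, a Schwann cell transcription factor, NGFR, a neurotrophin receptor, and GFAP, a glial filament protein. In the second set, as labelled, 12 of 15 rose and 0 fell (median 1.65; 1 lower at an unadjusted p under 0.05, 0 lower by DESeq2 and limma-voom). Of all genes there, 14.9% were called higher and 11.6% lower.

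Of 30 proteoglycan and elastic fibre genes, 6 fell in the foot of the first set (DCN, LUM, OMD, EFEMP2, MFAP5 and LOXL1) and 0 rose by edgeR and limma-voom, with 2 higher at an unadjusted p under 0.05 and 1 higher by DESeq2. Of all genes, 3.7% were called lower. With the pig as a block 10 genes of the list were called. Of 26 cornified envelope genes, which build the outer barrier of the epidermis, 12 rose, including KRT1, KRT78 and CASP14, and 0 fell, also by DESeq2, by limma-voom and at an unadjusted p under 0.05. Of all genes, 3.4% were called higher. These are calls on the mean of both foot sites and do not show a rise at each. The largest of the 4 adjusted p was 0.607 for KRT1, 0.105 for KRT78 and 0.941 for CASP14 by edgeR. The medians of the 2 lists were -0.38 and 0.80, against -0.02 over all genes. None of the genes of these lists met the rule in the first set except members already named. Leaving out a pig lowered these counts: without the pig aged 4, 8 or 7 months the nerve list had 0, 0 and 2 calls, the proteoglycan list 2, 0 and 1, the cornified envelope list 9, 5 and 4 and the HOX 9 to 13 list 5, 7 and 5. In the same libraries the summed skeletal muscle list ran from 16.2 to 14240 CPM in snout and the adipocyte list from 560.5 to 3841 CPM in flank, against 17.9 to 40.9 CPM and 178 to 1009 CPM in the foot. Their part in these results was not tested.

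Ranges gave a second description that needs no test, added after the data were seen. In the first set 56 genes (0.366%) had all 6 foot libraries above all 6 others, among them CLDN1, a tight junction protein, at 423.5 to 542.4 CPM against 233.4 to 412.8 CPM, and ITGB8, an integrin, at 98.0 to 148.9 CPM against 60.2 to 86.4 CPM. Another 71 genes (0.464%) had all 6 below, among them CNTN1, at 21.2 to 36.5 CPM against 45.9 to 103.6 CPM. Without TMM factors, on plain CPM, the counts were 31 and 60. In the second set as labelled, 25 of the 56 (44.6%) had all libraries labelled volar and dorsal below the rest, which was so in 3% of all genes tested. Of the 71, 37 (52.1%) had them all above, against 3.01%. No gene of either group was separated in the direction of the labels, or called in it by edgeR. The genes named here were chosen after their values were seen.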

How the data were processed

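The deposited table holds an estimated count per gene and library from Salmon, a tool named in the submitters' processing notes. Version, genome build and annotation: not given in the sources used here. Libraries were TruSeq stranded mRNA from 4 mm punches, per the labels' protocols. Counts were rounded (42.2% were not whole, tolerance 1e-09). Members and lists were chosen with earlier results of these data known.

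edgeR 4.0.16 (R 4.3.3; robust quasi-likelihood) was fitted to site means after filterByExpr (minimum of 10 counts, 15 in total) with TMM factors, and p was adjusted over all genes tested (15302 in the first set, 8 residual degrees of freedom; 15280 in the second, 4). Folds are ratios of mean CPM; against a group at 0, 3 counts over the group were used. Floors cover counting error only. Each SE is the absolute log2 fold change divided by the square root of edgeR's F statistic. The rule's own comparisons in the first set are descriptions, and so is the interaction with the set for members. Tests on members in libraries that did not choose them are those of the second set. Sole against upper foot and flank against snout were not in the rule but use the first-set libraries that chose the members. Sites come from the same pig per the labels, which pairs libraries; for the first set, deviations from the site mean correlated within a pig with r from -0.01 to 0.43 (median 0.22), for the second from 0.12 to 0.44 (median 0.31). No libraries were copies (highest r 0.986). Named genes were members with a symbol, at least 5 CPM and no overlap, up to 4 members per list, a fixed set of HOX and limb genes, and those next to the threshold. Alternatives were DESeq2 1.42.0, limma-voom (limma 3.58.1), other scalings and filters, and left-out pigs and libraries. The tests were tried on simulated counts with planted changes and no pig effect, and the outcome is not given here. Some genes are not reported here. No sequences or coordinates are given, since no sequence table or build was at hand.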

Additional observations from a re-analysis of the deposited data

Results flagged for a closer look

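In 3 genes, 1 of the 6 flank and snout libraries of the first set stood apart from the other 5 by Dixon's gap test: SP8 in the snout of the 7-month pig at 0.0698 CPM, HOXA11 in the flank of the 8-month pig at 0.679 CPM and HOXA10 in the same library at 2.45 CPM. For normally distributed values chance alone marks about 1 group in 20, a rate that need not hold for levels this low. For SP8 the other 5 libraries held no count, so any count in the remaining library would have been marked.

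The labelled foot contrast differed between the first and the second set by edgeR's interaction test (the weakest below was HOXC13, adjusted p = 0.0262). The first minus the second set, on the log2 scale, gave 7.76 for RHCG, 8.08 for PAX9, 7.94 for ENSSSCG00000029666, 14.835 for ENSSSCG00000015979, 14.25 for HOXC11 and 18.20 for SP8. Among the other HOX genes it gave 11.50 for HOXC10, 9.91 for HOXA11, 1.82 for HOXC13, 13.40 for HOXA9, 12.54 for HOXA10, 7.80 for HOXC9, 2.07 for HOXD10, 3.94 for HOXD11 and 10.99 for HOXD12. For limb genes it gave 3.28 for TBX4, 8.91 for TBX5, 4.16 for EN1 and -2.57 for LMX1B. For the 6 members, and for HOXA11, HOXD11 and HOXD12 of the placed version, the difference contains values by which they were chosen and is a description, with no test. Where a group had no count the fitted size depends on the prior count, and only the direction is meant.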

How the results depend on the processing

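The 6 members all stayed under median-of-ratios and upper-quartile scaling, both other filters, removal of the 20 most abundant genes and a log2 fold change of at least 1. DESeq2 gave 29 genes (17 higher, 12 lower; all 6 kept) and limma-voom 10 (8 higher, 2 lower; 5 kept, RHCG lost). An adjusted p under 0.01 left 1, placement of all libraries gave 27 and labels throughout gave 0. Leaving out pigs or libraries gave 0 to 9 members. The mean comparison called 1087 genes, 2197 by DESeq2, 499 with a log2 fold change of at least 1, and 121 to 1157 with pigs or libraries left out. Members called between sole and upper foot numbered 2, and 1 with any 1 pig left out; between flank and snout 2, 1 by limma-voom and 1 with any 1 pig left out. All 6 were called in the second set under every alternative run except the filter at 1 CPM, which left 5. Genes separated by range numbered 127, and 145 to 226 with a library left out. No scaling moved the median of all genes by over 0.1. Leaving out a pig was not run in the second set, since 4 libraries for 4 sites allow no test. At 0 to 3 counts in a group, depth limits folds to bounds.

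With the pig as replicate block, the pairing kept 5 of 6 members (PAX9 lost), called 1453 genes in the mean comparison, and kept 2 members between sole and upper foot, 2 between flank and snout and 6 in the second set. Beside the proteoglycan list (6 without the block, 10 with it), it moved no other count described by over 1.5 times.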
